A study of Caenorhabditis elegans with 6 samples.

Results

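The sperm and spermatogenesis genes of Caenorhabditis elegans other than those of the major sperm protein were followed in nematodes exposed to the organophosphate insecticide chlorpyrifos (CPF). Members were all genes whose symbol starts with spe-, ssp-, ssq-, sss-, nspd- or msd-, plus gsp-3 and gsp-4, found through the sequence name given for each probe. The annotation (assembly WBcel235) holds 71 such genes, and 64 of them, of 18865 genes on the array in all, had 75 probes between them. Of these 64 genes, 32 were spe genes and 32 were late sperm products (12 ssp, 4 ssq, 2 sss, 10 nspd, 2 msd and 2 gsp). No probe stood for spe-10, spe-40, ssp-28, msd-1, msd-3, nspd-11 or nspd-12.

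The CPF group consisted of N2 wild-type hermaphrodites raised from eggs at 24 °C on plates with 0.5 mg/l CPF and Escherichia coli OP50 as food. The control group was raised alongside at the same temperature on plates with the solvent acetone and no CPF. The labels give larvae of the L3 or L4 stage at 72 h, while the study's methods give the late L3 stage after a shorter growth time. Each of the 6 dual-channel arrays carried 1 CPF sample and 1 control sample, each pooled from several dishes of whole worms, with the CPF sample in the Cy5 dye on 3 arrays and in the Cy3 dye on the other 3. The comparison asked which genes responded to the toxicant at a dose chosen to leave development and reproduction unaffected.

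Hermaphrodite worms make sperm late in larval life, before the germ line turns to oocytes. The spe genes are known from mutants with defective sperm, and they act from the transcription of sperm genes and the meiotic divisions through the building of fibrous body-membranous organelles, the structures that carry the major sperm protein, to sperm activation and fertilisation. The ssp, ssq, sss and msd genes are named as sperm-specific families or for a major sperm protein domain, nspd genes code for a family of nematode-specific peptides, and gsp-3 and gsp-4 code for phosphatases of the PP1 type that act in sperm. Transcription largely stops before the meiotic divisions, so the products of a mature spermatid come from RNA made in spermatocytes.

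A probe was tested when it stood above its local background in at least 6 of the 12 channels, and the brightest tested probe stood for its gene. This left 46 of the 64 members, 18 spe genes and 28 late sperm products. Above background in all 12 channels were 2 of the 18 tested spe genes and 15 of the 28 tested late products. The loss was largest among the fertilisation genes, which act on the sperm surface or are secreted by sperm, where spe-41 alone of 8 was tested and the others, spe-9 and spe-38 among them, were too dim. Of the 9 activation genes 4 were tested (spe-12, spe-46, spe-47 and spe-48), and spe-8, spe-19, spe-27, spe-29 and spe-43 were too dim. The 14 untested spe genes reached between 0 and 5 of the 12 channels, and 5 of them reached 0. The untested late products were msd-2, nspd-6, ssp-9 and ssp-37. In whole worms, a change in the number of sperm cells and a change in the RNA per cell cannot be told apart.

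All ratios below are log2 of CPF over control, with the dyes of each scanner file taken from the label of its sample. The submitters' own table of processed ratios disagrees with this placement, since each of its 6 columns tracked a scan whose replicate number was the same but whose dyes were labelled the other way round. With the sample labels applied to that table's columns instead, every ratio below would have the opposite sign and every gene given as higher would be lower, with p-values as they are. The direction thus rests on the sample labels as applied to the scanner files. The array CPF in Cy3 replicate 1 stood apart, with an SD of its log2 ratios of 0.900 against 0.424 to 0.468 on the other arrays, and it was scanned with a Cy5 gain of 60 where the others had 55. Fits without it are given for the medians of both gene classes. They are also given for members under the naming rule stated with the processing, at the probe that stood for the gene. There they are given where the array moved a ratio by over 1.5 times or changed a call. Each orientation was scanned as its own series of slides and had its own animals, so that these 3 cannot be told apart.

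The late sperm products were brighter in the CPF channel on 4 of the 6 arrays and not on the other 2. The median log2 ratio of the spe genes was 0.41, 0.12 and 0.30 on CPF in Cy5 replicates 1, 2 and 3, and 0.24, 0.01 and 0.01 on CPF in Cy3 replicates 1, 2 and 3. The same medians of the late products were 1.20, 1.35 and 0.87 on the CPF in Cy5 arrays, and 1.12, -0.10 and -0.17 on the CPF in Cy3 arrays. The spe median was thus below the late median by 0.57 to 1.23 on the first 4 arrays, and above it by 0.11 and 0.18 on CPF in Cy3 replicates 2 and 3. Over all 9947 tested genes the medians lay between -0.02 and 0.04 on the 6 arrays. This split into 4 and 2 arrays was read off these same genes, so counts along it describe it and are no separate support. Of the 18 spe genes 7, and of the 28 late products 25, were above 0 on all 4 of these arrays at once. The share over all tested genes was 16.4%. Below 0 on both of the other 2 arrays at once were 15 late products, against 36.4% of all tested genes.

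**Figure D1:**
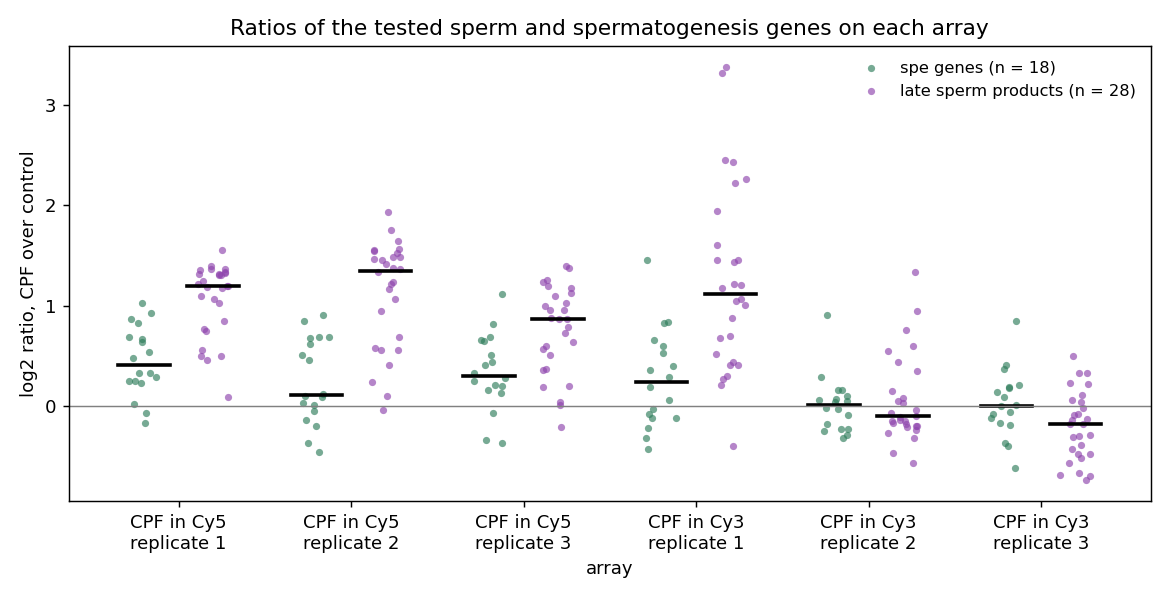
Log2 ratio of CPF over control (y axis) of the 18 tested spe genes and the 28 tested late sperm products on each of the 6 arrays (x axis), with a point per gene and a black line at the median. The late products lie above the spe genes on 4 arrays, with medians of 0.87 to 1.35, and at medians of -0.10 and -0.17 on CPF in Cy3 replicates 2 and 3.

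Fitted over all 6 arrays, the spe genes had a median log2 ratio of 0.24, with a range of -0.12 to 0.42, and the late products a median of 0.68, with a range of 0.16 to 1.41. Without CPF in Cy3 replicate 1 the medians were 0.16 and 0.45, and the spe median minus the late median was -0.29. With all 6 arrays, 17 of 18 spe genes and all 28 late products had a fitted ratio above 0. So had 5063 of the 9947 tested genes, and the median over all 9947 was 0.01. For 24 of the 28 late products the ratio was above that of spe-58, the highest spe gene, which was named after its value was seen. The fit passed few of these genes. At an adjusted p of 0.05 (limma, Benjamini-Hochberg over all tested probes), 0 spe genes and 2 late products were higher and 0 members were lower, where 0.965% of all tested genes were called higher and 2.34% lower. At an unadjusted p of 0.05, 5 of 18 spe genes and 23 of 28 late products were higher and 0 were lower, against 13.2% of all tested genes higher and 12.2% lower. The members move together across arrays and are not independent of each other, so these counts describe the sets and test nothing about them.

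The count of 2 calls rested on single arrays. Without any 1 of the CPF in Cy5 replicates 0 members were called, where 0.0302% to 0.161% of all genes were called higher. Without CPF in Cy3 replicate 2, 0 members were called too, where 0.0603% of all genes were called higher. Without CPF in Cy3 replicate 1, the array that stood apart, 0 spe genes and 11 late products were called higher, against 2.77% of all genes. Without CPF in Cy3 replicate 3, 2 spe genes (spe-39, and spe-54, which was named after its values were seen) and 19 late products were called higher, against 6.38% of all genes. On the 3 CPF in Cy5 arrays alone, 4 spe genes and 21 late products were called higher, against 3.25% of all genes. On the 3 CPF in Cy3 arrays alone 0 members were called, where 0.0603% of all genes were called higher.

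**Figure D2:**
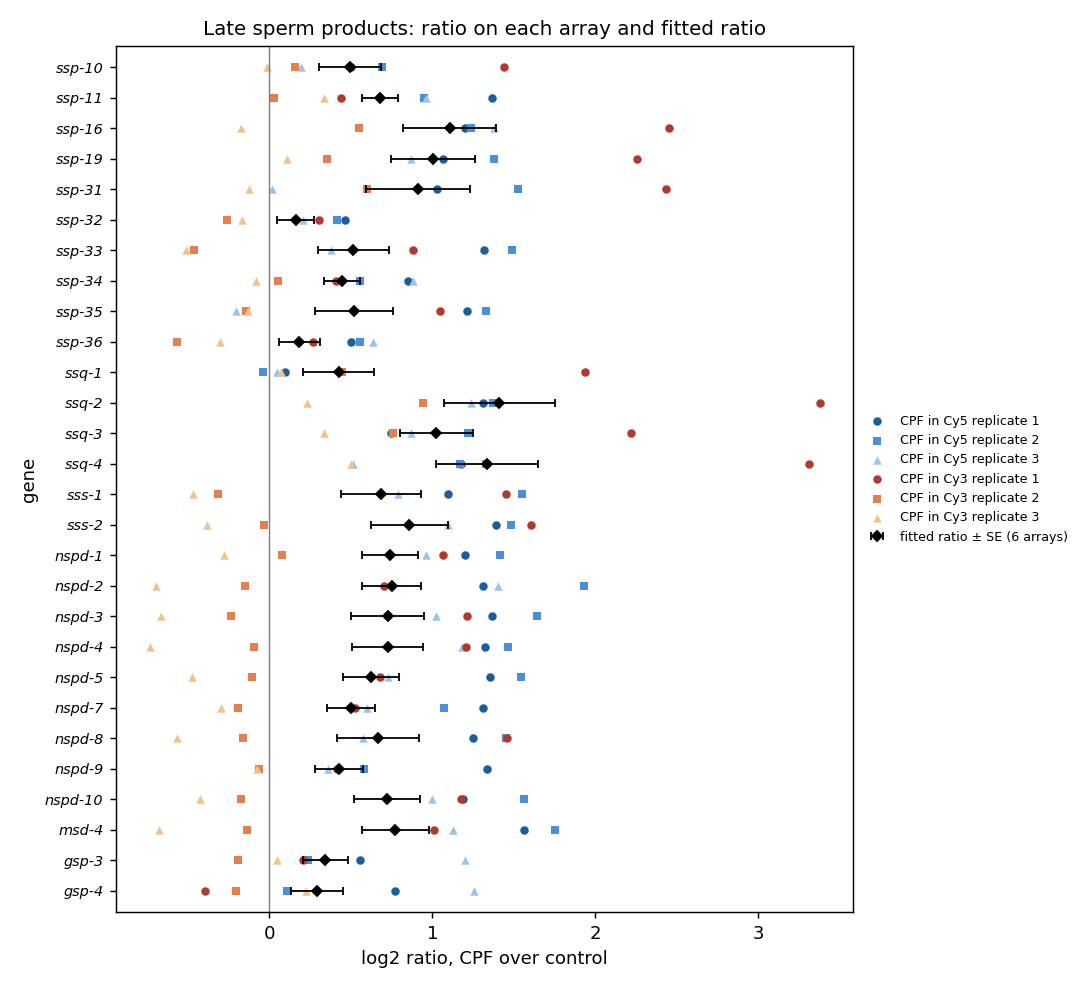
Log2 ratio of CPF over control (x axis) of each of the 28 tested late sperm products (y axis), with a coloured symbol per array and a black diamond with its SE for the fit over 6 arrays. The ssq genes and ssp-16, ssp-19 and ssp-31 reach their highest values on CPF in Cy3 replicate 1, while the nspd genes and msd-4 lie below or near 0 on CPF in Cy3 replicates 2 and 3.

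The ssp genes (sperm-specific family, class P) held the member with the smallest p. For ssp-11 (T28H11.6, chromosome IV) the log2 ratio was 1.37, 0.95 and 0.96 on the CPF in Cy5 arrays and 0.44, 0.03 and 0.34 on the CPF in Cy3 arrays. All 6 values were above 0, and every CPF in Cy5 value was above every CPF in Cy3 value. The normalised log2 brightness of ssp-11 averaged 12.13 ± 1.23 in the CPF channels and 11.45 ± 1.26 in the control channels (SD, n = 6), so that the levels overlapped between arrays while the CPF channel was the brighter within each. The fitted ratio was 0.68 ± 0.11 (SE, n = 6 arrays), a 1.60-fold difference, with an adjusted p of 0.024 from limma. Over the alternatives its adjusted p ranged from 6.67e-05 to 1.

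Other ssp genes had larger ratios with wider spread. The ratio of ssp-16 (T27A3.3) was 1.20, 1.24 and 1.38 on the CPF in Cy5 arrays, and 2.45, 0.55 and -0.17 on the CPF in Cy3 arrays. The ratio of ssp-19 (C55C2.2) was 1.06, 1.38 and 0.87 on the CPF in Cy5 arrays and 2.26, 0.36 and 0.11 on the CPF in Cy3 arrays. Both were highest on CPF in Cy3 replicate 1, and their fitted ratios of 1.11 ± 0.29 and 1.01 ± 0.26 (SE, n = 6) had adjusted p-values of 0.0702 and 0.0693 in limma. Without that array both were called, at 0.73 for ssp-16 (adjusted p 0.01) and 0.67 for ssp-19 (adjusted p 0.00976). The second probe of ssp-16 gave 0.77 ± 0.24 and the same order of arrays. For ssp-34 (ZC168.6) the values were smaller and closer together, at 0.85, 0.56 and 0.88 on the CPF in Cy5 arrays and 0.41, 0.05 and -0.08 on the CPF in Cy3 arrays, with an adjusted limma p of 0.0647. The other 6 tested ssp genes had fitted ratios of 0.16 to 0.91 and were not called.

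The 4 ssq genes (class Q) were all above 0 on CPF in Cy3 replicates 2 and 3, where 11 and 8 of all 28 late products were above 0. For ssq-3 (ZC477.1, chromosome IV) the ratio of the brighter probe was 0.75, 1.22 and 0.87 on the CPF in Cy5 arrays and 2.22, 0.76 and 0.33 on the CPF in Cy3 arrays. The orientations overlapped and all 6 values were above 0. The brightness of ssq-3 averaged 12.74 ± 0.90 in the CPF channels and 11.72 ± 1.02 in the control channels (SD, n = 6). Its fitted ratio was 1.02 ± 0.22 (SE, n = 6) with an adjusted limma p of 0.0482, just inside the threshold. The dimmer probe of ssq-3 gave 1.13 ± 0.29 with an adjusted p of 0.0672, just outside it.

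The largest ratios of all members were those of ssq-2 (T28H11.5) and ssq-4 (T28H11.1). The ratio of ssq-2 was 1.31, 1.37 and 1.24 on the CPF in Cy5 arrays and 3.38, 0.94 and 0.23 on the CPF in Cy3 arrays. That of ssq-4 was 1.18, 1.17 and 0.51 on the CPF in Cy5 arrays and 3.31, 1.33 and 0.50 on the CPF in Cy3 arrays. Both were above 0 on all 6 arrays, and both missed the threshold, with fitted ratios of 1.41 ± 0.34 and 1.33 ± 0.31 (SE, n = 6) and adjusted p-values of 0.0625 and 0.0576 in limma. Without CPF in Cy3 replicate 1, where each had its highest value, both were called in limma, at 0.95 for ssq-2 (adjusted p 0.00259) and 0.93 for ssq-4 (adjusted p 0.00788). The probes of ssq-1 (K07F5.11) were partly saturated, with up to 50.7% of the pixels of a spot at the ceiling for the brightest probe. That probe had 0.10, -0.04 and 0.04 on the CPF in Cy5 arrays and 1.94, 0.45 and 0.07 on the CPF in Cy3 arrays, against 0.41, 0.69 and 0.63, and 1.47, 0.79 and 0.18, for the least bright of its 3 probes. Their fitted ratios were 0.43 ± 0.22 and 0.70 ± 0.16 (SE, n = 6), neither was called, and without CPF in Cy3 replicate 1 the brightest probe gave 0.14. Saturated pixels reached 41.3% for the least bright probe too, and 22.4% for the third, which had a fit of 0.45 ± 0.23 and was not called. The part of saturation in the differences between the probes was not tested.

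**Figure D3:**
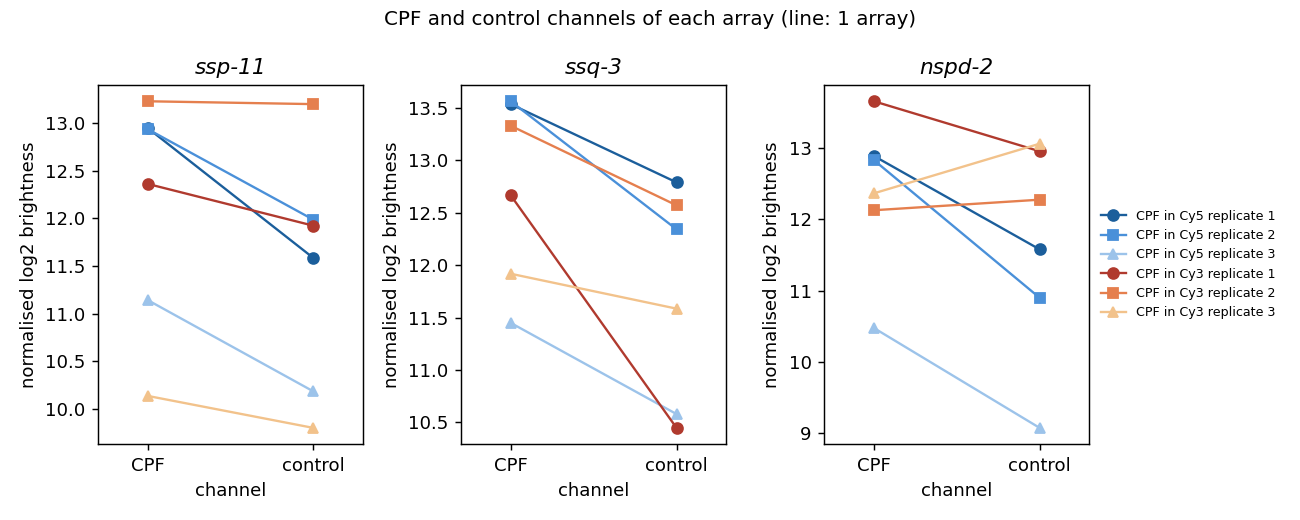
Normalised log2 brightness (y axis) of ssp-11, ssq-3 and nspd-2 in the CPF and the control channel (x axis) of each array, with a line per array. The CPF channel is the brighter on all 6 arrays for ssp-11 and ssq-3, while for nspd-2 the control channel is the brighter on CPF in Cy3 replicates 2 and 3.

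The nspd genes, which code for small nematode-specific peptides, were alike in the size of their ratios. The 9 tested genes had fitted ratios of 0.42 to 0.75, none was called, and all 9 were higher at an unadjusted p of 0.05. Of these, 6 were highest on CPF in Cy5 replicate 2, 2 on CPF in Cy5 replicate 1 and 1 on CPF in Cy3 replicate 1. Their median was 1.31, 1.47 and 0.96 on the CPF in Cy5 arrays and 1.06, -0.15 and -0.47 on the CPF in Cy3 arrays. For nspd-2 (K07F5.5) the values were 1.31, 1.93 and 1.40 on the CPF in Cy5 arrays and 0.70, -0.15 and -0.70 on the CPF in Cy3 arrays, without overlap between the orientations, and the fit gave 0.75 ± 0.18 (SE, n = 6) with an adjusted limma p of 0.0617. For nspd-1 (ZK484.8) they were 1.20, 1.42 and 0.96, and 1.06, 0.08 and -0.28, with a fit of 0.74 ± 0.17 and an adjusted p of 0.057. The fits of nspd-5 (F11G11.8) and nspd-10 (T27C10.7) were 0.62 ± 0.17 and 0.72 ± 0.20. Without CPF in Cy3 replicate 1, the fits of nspd-1, nspd-2 and nspd-10 were 0.55, 0.56 and 0.47, and these 3 were called (adjusted limma p 0.0207, 0.0318 and 0.0381). Members of this family resemble each other closely, and probe sequences were not compared here, so that signal shared between them cannot be told apart and the 9 genes may not be 9 separate measurements.

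The remaining late families followed nearly the same order of arrays. The ratio of msd-4 (C35D10.11), which has a major sperm protein domain, was 1.56, 1.75 and 1.13 on the CPF in Cy5 arrays and 1.01, -0.14 and -0.68 on the CPF in Cy3 arrays. Its fitted ratio was 0.77 ± 0.21 (SE, n = 6) with an adjusted limma p of 0.0741. The ratio of sss-2 (F47B8.11), a pseudogene in the annotation, was 1.39, 1.49 and 1.09 on the CPF in Cy5 arrays and 1.60, -0.04 and -0.39 on the CPF in Cy3 arrays, with a fit of 0.86 ± 0.23. Without CPF in Cy3 replicate 1, msd-4 and sss-2 were called, at 0.54 and 0.56 (adjusted limma p 0.0361 and 0.0181). For sss-1 (F32B6.5) the brighter of 2 probes gave 1.10, 1.55 and 0.79, and 1.45, -0.31 and -0.47. Its second probe reached 3.44 on CPF in Cy3 replicate 1 and 0.57 on replicate 2, and their fitted ratios of 0.68 ± 0.24 and 1.27 ± 0.45 were not called. Without CPF in Cy3 replicate 1 the brighter probe gave 0.38 and was not called.

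The PP1 phosphatase genes had smaller fitted ratios than most late products. The ratio of gsp-3 (W09C3.6) was 0.56, 0.24 and 1.20 on the CPF in Cy5 arrays and 0.21, -0.19 and 0.05 on the CPF in Cy3 arrays. The ratio of gsp-4 (T03F1.5) was 0.77, 0.10 and 1.25 on the CPF in Cy5 arrays and -0.39, -0.20 and 0.22 on the CPF in Cy3 arrays. Both were highest on CPF in Cy5 replicate 3, as were 2 ssp genes (ssp-34 and ssp-36, the second named after its values were seen), and their fitted ratios of 0.34 ± 0.14 and 0.29 ± 0.16 (SE, n = 6) had adjusted p-values of 0.161 and 0.261 in limma. The 2 genes are close paralogs, and their probes may share signal. The major sperm protein genes, of which 11 of 13 tested had saturated pixels so that their ratios may be compressed, had that same highest array in 11 of 13 cases, with medians of 0.67, 0.57 and 1.69 on the CPF in Cy5 arrays and -0.23, 0.04 and -0.14 on the CPF in Cy3 arrays. Among the 28 late products, 10 were highest on CPF in Cy3 replicate 1, 10 on CPF in Cy5 replicate 2, and 4 each on CPF in Cy5 replicates 1 and 3.

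**Figure D4:**
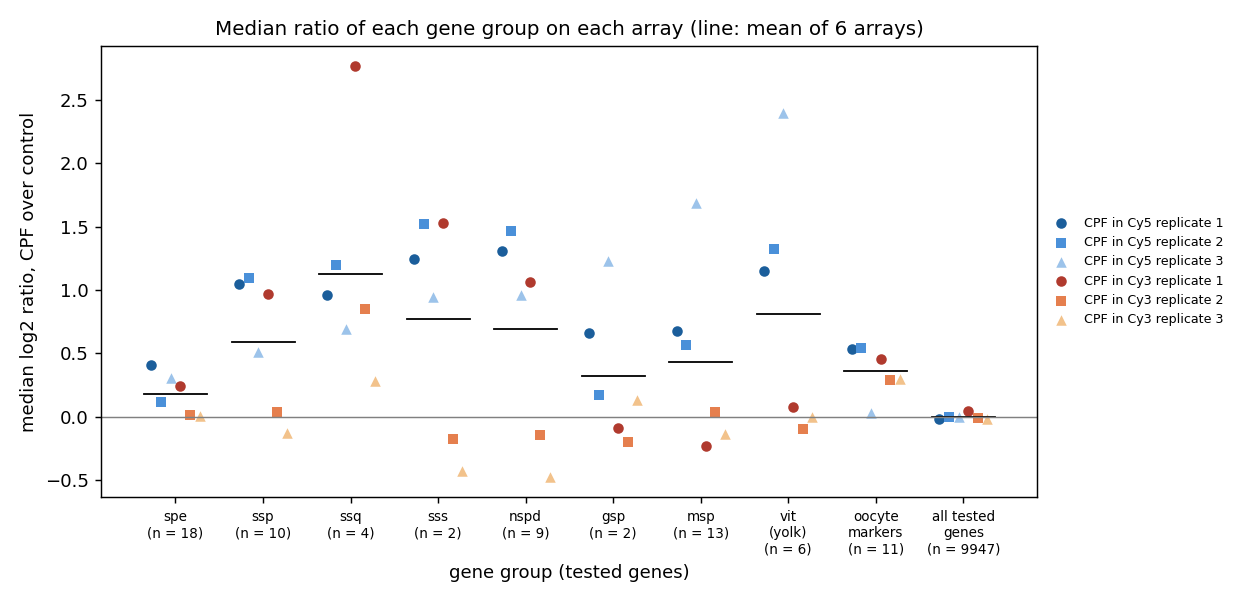
Median log2 ratio of CPF over control (y axis) of each gene group (x axis, with the number of tested genes) on each of the 6 arrays, with a line at the mean of the 6 medians. The ssp, ssq, sss and nspd groups were high on CPF in Cy3 replicate 1, at medians of 0.97 to 2.77, where the gsp, msp and vit groups lay between -0.23 and 0.08.

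Among the spe genes, the 3 for transcription and the meiotic divisions had fitted ratios of 0.08 to 0.40. For spe-44 (C25G4.4), a transcription factor of the spermatogenesis programme, the ratio was -0.17, 0.03 and 0.69 on the CPF in Cy5 arrays and 0.84, 0.16 and 0.85 on the CPF in Cy3 arrays. This order did not follow that of the late products, and its fitted ratio of 0.40 ± 0.15 (SE, n = 6) had an adjusted limma p of 0.14. For spe-6 (Y66D12A.20), a casein kinase 1 homolog, the 6 ratios lay between -0.07 and 0.28 and the fit gave 0.08 ± 0.10. For spe-26 (R10H10.2), a kelch-type protein of the spermatocyte cytoskeleton, they lay between -0.29 and 0.87 and the fit gave 0.20 ± 0.13, or 0.13 without CPF in Cy3 replicate 1.

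The genes for building and segregating the sperm organelles came next, with 6 of 7 tested and fitted ratios of 0.06 to 0.39. For spe-4 (ZK524.1), a presenilin, the ratio was 0.33, 0.46 and 0.82 on the CPF in Cy5 arrays and -0.07, 0.29 and 0.18 on the CPF in Cy3 arrays. Its fitted ratio was 0.34 ± 0.11 (SE, n = 6) with an adjusted p of 0.113, the smallest in limma of any spe gene. For spe-18 (F32A11.3), which acts in the assembly of fibrous bodies, the ratio was 0.48, 0.52 and 1.12 on the CPF in Cy5 arrays and -0.21, 0.04 and 0.41 on the CPF in Cy3 arrays, with a fit of 0.39 ± 0.13 and an adjusted p of 0.116. Both genes were highest on CPF in Cy5 replicate 3, as were gsp-3 and gsp-4. The ratios of spe-15 (F47G6.4), a myosin VI, lay between -0.33 and 0.68 with a fit of 0.15 ± 0.16, which was 0.04 without CPF in Cy3 replicate 1. With 1 array left out it ranged from 0.03 (without CPF in Cy5 replicate 2) to 0.28 (without CPF in Cy5 replicate 3). For spe-39 (ZC404.3), a protein of vesicle traffic, 1 of 4 probes was tested, and its values ran the other way, at 0.02, -0.37 and 0.26 on the CPF in Cy5 arrays and 1.46, 0.91 and -0.11 on the CPF in Cy3 arrays, with a fit of 0.36 ± 0.19, which was 0.18 without CPF in Cy3 replicate 1 and 0.58 without replicate 3 (called, adjusted limma p 0.0393).

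Of the genes for the later steps, spe-46 (W06D4.2), which acts in sperm activation, had ratios of 0.64, 0.69 and 0.13 on the CPF in Cy5 arrays and 0.60, 0.10 and 0.00 on the CPF in Cy3 arrays. Its fitted ratio was 0.36 ± 0.13 (SE, n = 6) with an adjusted limma p of 0.127. For spe-41 (K01A11.4), a TRP-type calcium channel needed for fertilisation, the ratios lay between -0.23 and 0.65 and the fit gave 0.14 ± 0.14. With 1 array left out it ranged from 0.03 (without CPF in Cy5 replicate 3) to 0.24 (without CPF in Cy5 replicate 2). The paternal factor spe-11 (F48C1.7), which the sperm brings into the egg, had 0.67, 0.69 and 0.16 on the CPF in Cy5 arrays and 0.40, -0.18 and -0.36 on the CPF in Cy3 arrays, the order of the nspd genes at a smaller scale, with a fit of 0.23 ± 0.14, or 0.12 without CPF in Cy3 replicate 1. The 4 tested activation genes had fitted ratios of -0.12 to 0.36, and the 3 tested spe genes outside these roles had 0.07 to 0.42. The 1 spe gene with a fitted ratio below 0 was spe-48, at -0.12 ± 0.14, named after its value was seen.

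**Figure D5:**
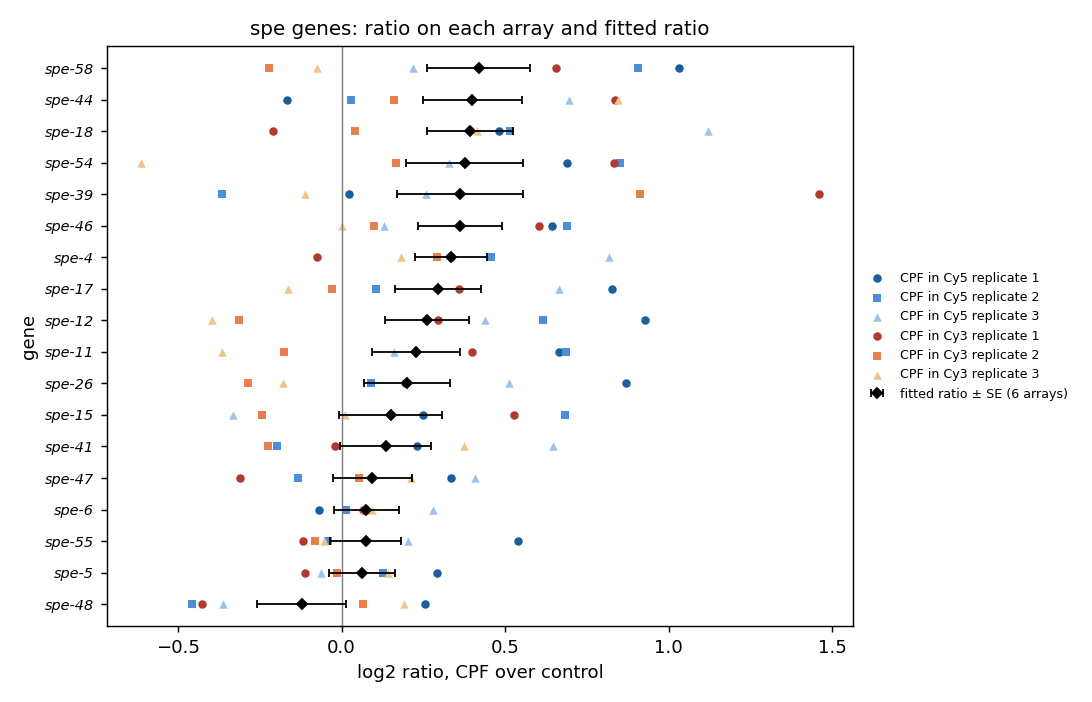
Log2 ratio of CPF over control (x axis) of each of the 18 tested spe genes (y axis, ordered by fitted ratio), with a coloured symbol per array and a black diamond with its SE for the fit over 6 arrays. The fitted ratios run from -0.12 for spe-48 to 0.42 for spe-58, and the arrays are not in the same order for all genes.

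The background correction adds an offset of 50 to each channel, which pulls the ratios of dim probes towards 0, and the spe probes were less often above background. With plain background subtraction and no offset, the spe median was 0.36 and the late median 0.72, against 0.24 and 0.68 with the offset. With no filter on dim probes, the median over all 32 spe genes was 0.09 and that over all 32 late products 0.64. Of the 28 late products, 10 were no brighter than the brightest spe probe. The 18 spe genes had a median of 0.24, these 10 late products 0.48 and the 18 brighter late products 0.72. This bound was set by spe-18 alone, at a mean log2 brightness of 9.87. The next spe probe, that of spe-48, averaged 8.63 in the CPF and 8.75 in the control channels. The late products no brighter than spe-48 were nspd-9, ssp-32, ssp-36 and ssq-4, with fitted ratios of 0.425, 0.16, 0.183 and 1.33. They are too few for a comparison at matched brightness, and nspd-9 and ssp-32 were named after their values were seen. Among probes above background in all 12 channels, the 2 spe genes had a median of 0.14 and the 15 late products 0.73.

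The dye orientations were set against each other through the dye term of the same fit. At an adjusted p of 0.05 the term was called for 0 of the 46 members and for 0.0101% of all tested genes. At an unadjusted p of 0.05 it passed for 2 spe genes and 14 late products, all with the higher ratio on the CPF in Cy5 arrays, against 9.33% of all tested genes. All 3 CPF in Cy5 values were above all 3 CPF in Cy3 values for 4 of 18 spe genes and 8 of 28 late products, against 7.51% of all tested genes. A ratio above 0 on all 6 arrays was seen for 1 spe gene (spe-46) and 5 late products (ssp-11, ssp-19, ssq-2, ssq-3 and ssq-4), against 7.04% of all tested genes.

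Other genes of the sperm pathway, from the sex determination of the germ line to sperm chromatin, had fitted ratios of -0.32 to 1.33 with a median of 0.18. Of 26 on the array 20 were tested, 1 was called higher and 0 lower, and at an unadjusted p of 0.05, where 13.2% of all genes were higher, 6 were higher and 0 lower. The 1 called was gld-1, an RNA-binding regulator of germ cell fate and oogenesis, at 0.61 ± 0.11 (SE, n = 6) with an adjusted limma p of 0.0335. The sperm chromatin genes spch-1 and spch-2 had the largest ratios of this list, 1.07 ± 0.32 and 1.33 ± 0.38, with adjusted limma p-values of 0.0904 and 0.0843. On CPF in Cy3 replicate 1, the array that stood apart, they had 2.89 and 3.85. On the other arrays spch-1 had 0.11 to 1.34 and spch-2 had 0.45 to 1.08. The third gene of this kind, spch-3, had 0.18 ± 0.10 with an adjusted limma p of 0.274. The genes smz-1 and smz-2, which code for sperm proteins with a PDZ domain, had 0.53 ± 0.16 and 0.49 ± 0.15, with adjusted p-values of 0.0999 and 0.0905. The sex determination genes fog-1, which commits germ cells to sperm, and fem-1 and fem-2 had fitted ratios of -0.32 ± 0.18, -0.25 ± 0.15 and -0.30 ± 0.13 and were not called. Others of this kind on the list, fog-3, fem-3, tra-1 and tra-2, had -0.021, 0.174, 0.135 and -0.049 and were not called either.

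Markers of other cells moved beside the sperm genes. All 6 yolk protein genes (vit-1 to vit-6) were tested, 4 of them with saturated pixels, and 5 were called higher, with medians of 1.15, 1.33 and 2.39 on the CPF in Cy5 arrays and 0.08, -0.10 and 0.00 on the CPF in Cy3 arrays. Yolk genes are expressed by the adult intestine, and the labels name larvae. The 11 tested oocyte markers had a median fitted ratio of 0.36, with 1 called higher, and 5 of them were above 0 on all 6 arrays. Markers of the germ line at large, of muscle and of neurons had median ratios of 0.21, 0.05 and -0.17 with 0 called. The 5 gut markers had a median of -0.30, with 0 fitted ratios above 0, and 1 was called lower. Of these 5, 3 were below 0 on all 6 arrays, as were 853 of all 9947 tested genes. The part of any of these tissues, or of the stage of the worms, in the ratios of the sperm genes was not tested.

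The members lay mostly on chromosomes I and IV, a property that the rule did not use. Chromosome I holds 13 of the 32 spe genes (40.6%) and 9 of the 32 late products on the array (28.1%), against 14.4% of all genes on the array with a known chromosome. Chromosome IV holds 10 of the spe genes (31.2%) and 16 of the late products, against 15.9% of all genes. None of the 64 lies on the X chromosome, which holds 13.7% of the genes on the array. Late products of different families stand close together, and their sequence names place ssq-2, ssp-11 and ssq-4 on 1 clone (T28H11) and nspd-2, ssp-10 and ssq-1 on another (K07F5). Neighbours differed in their values on single arrays. On CPF in Cy3 replicate 1 the ratios were 0.44 for ssp-11, against 3.38 and 3.31 for ssq-2 and ssq-4. Of the K07F5 genes, ssp-10 and ssq-1 had saturated pixels and were not set against nspd-2.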

How the data were processed

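Spots were quantified in ScanArray Express per the file headers, and the deposited intensity values (mean and median brightness and local background of Cy3 and Cy5) were not normalised. The percent of saturated pixels per spot was deposited in the same files. A deposited table holds log2 ratios that the authors made with limma (3.2.3 in the submitters' processing notes) by loess and Aquantile scaling. It served as an alternative only, and the place and sign of each of its columns were set by the correlation with the scans.

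Of 23232 spots, 742 were controls or blanks and 22490 were gene probes. Of these, 21382 were named by sequence name and 31 by the platform's gene number through RefSeq's gene table, and 1077 kept the name in the files. Mean brightness was background-corrected with normexp (offset 50), normalised by loess within arrays with control spots at weight 0 and by Aquantile between arrays, in limma 3.58.1 (R 4.3.3). Tested probes were brighter than background plus 2 of its SDs in 6 or more of the 12 channels (11033 probes, 49.1%). Log2 ratios (CPF over control) were fitted with lmFit and eBayes on a CPF and a dye term (2-sided, n = 6 arrays), with Benjamini-Hochberg adjustment over all tested probes, in place of the study's linear model of single channels, which was kept as an alternative. Errors after ± are moderated SEs of the fit unless called SD. The precision is limited by the number of arrays. Each array is a separate biological replicate according to the study's methods. The fit was tested on simulated ratios with independent errors, no dye effect and no array of wider spread. That test does not cover genes that move together, a dye pattern or an array that stands apart, as in these data.

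Genes named in the text were the called members, up to 4 members of each name group with the smallest p, and gsp-3, gsp-4, spe-4, spe-6, spe-11, spe-15, spe-26, spe-39, spe-41 and spe-44. Members and lists were chosen with earlier results of these data known. Deviations of same-numbered arrays of the 2 orientations correlated at 0.103, -0.0788 and 0.271 across probes, so the numbers were not taken as pairs. Alternatives covered background correction, brightness measure, normalisation, filter, saturation, dye term, replicate block, array weights, the deposited table, each orientation and each array left out. No probe or promoter sequence was used here. Python 3.11.15 and matplotlib 3.10.9 were used for tables and figures.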

Additional observations from a re-analysis of the deposited data

Results flagged for a closer look

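Each named gene and the medians of 6 groups were checked for a single array far from the other 5, and 3 genes and 1 group median stood out by Dixon's test at the 95% level, out of 33 checked. Chance alone flags about 1 in 20 such checks, and the ssq genes are not independent of each other. In every case the array was CPF in Cy3 replicate 1. The log2 ratio (CPF over control) on that array was 1.94 for ssq-1, 3.38 for ssq-2 and 3.31 for ssq-4, and the median of the 4 ssq genes was 2.77. The nearest other arrays gave 0.45 for ssq-1, 1.37 for ssq-2, 1.33 for ssq-4 and 1.20 for the group median. This is the array with the widest spread of ratios over all probes.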

How the results depend on the processing

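The number of members called higher, 2 in the fit as reported, was the value that moved most with the processing. Under each of the 24 alternatives 0 members were called lower. All alternatives kept the dyes as given by the sample labels, and the signs of the deposited table's columns were set by their correlation with the scans. The 0 called lower is thus no separate support for the direction. The number called higher was 0 with median centring, without the dye term, with the study's linear model and on the CPF in Cy3 arrays alone. It was 1 with no or plain background subtraction, with no filter on dim probes and with the mean over a gene's probes, 5 with median pixel brightness, 10 from the deposited table (3.21% of all genes called higher), 16 with scale normalisation (5.23%) and 33 with array weights (22.2%), a fit that did not converge and gave CPF in Cy3 replicate 2 a weight of 27.4 against 0.142 to 1.61. The CPF in Cy5 arrays by themselves gave 25. With the replicate number as a block it was 4 (1.45% of all genes), although the numbers do not pair the arrays. Leaving out each array gave 0 to 21. Over all genes, scale normalisation called 520 higher and 495 lower and median centring 3 and 50, against 96 and 233 as reported, and median centring put the median of all genes at 0.10. The fit without the dye term called 30 and 161, the CPF in Cy3 arrays alone 6 and 14, and the study's linear model 0 and 8. The study read its model at an unadjusted p with a threshold set by permutations, so the 0 calls at the adjusted p used here are not its result. The spe median of 0.24 became 0.066 on the CPF in Cy3 arrays alone and 0.063 in the deposited table, where fewer genes had values, and it was 0.085 with no filter on dim probes, over all 32 spe genes. The late median of 0.68 became 0.208 on the CPF in Cy3 arrays alone and 1.076 on the CPF in Cy5 arrays alone. The difference of the medians, -0.438, became -0.142 and -0.716 there. Over the arrays left out, the late median ranged from 0.45 to 0.86 and the difference from -0.56 to -0.29. These moves were within the SDs over arrays of 0.68 and 0.57, but such SDs are wide beside the values themselves. Of the 27 named genes, signs turned on the CPF in Cy3 arrays alone for gsp-4 (-0.125), nspd-2 (-0.048), spe-11 (-0.048) and spe-26 (-0.091), on the CPF in Cy5 arrays alone for spe-39 (-0.029), in the deposited table for spe-15 (-0.003) and spe-26 (-0.022), with median pixel brightness for spe-15 (-0.007) and with array weights for spe-41 (-0.032). The cause of these changes was not tested. The call of ssp-11 was lost under 8 alternatives and that of ssq-3 under 15. Ratios of dim spe probes and of the saturated ssq-1 probes are limited by brightness over background and by the scanner's ceiling.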
